A study of Mus musculus with 10 samples.

Results

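Strong open sites in gene deserts are places far from any protein-coding gene where peak lists mark the chromatin of muscle stem cells as accessible. They were 1599 regions, chosen by their measured strength and their position. Each was a region of the young PGE2 peak list with a fold of at least 10 that overlapped a region of the aged PGE2 list with a fold of at least 7. Its young summit lay outside every protein-coding gene and over 150 kb from the nearest protein-coding gene end. The fold is the authors' value for a summit, roughly the number of fragments piled up there divided by the background their peak caller assumed. The 1599 sites were 1.21% of the 131656 young regions and 4.78% of the 33479 strong shared regions, the name used here for young regions that met both fold limits anywhere in the genome. They lay in 364 deserts and had 1595 distinct aged partners, since 4 aged regions each covered 2 sites.

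The study measured open chromatin by ATAC-seq, in which a transposase inserts sequencing adapters into DNA that nucleosomes leave exposed. The cells were muscle stem cells, the resident cells that rebuild muscle fibres after injury, taken from C57BL/6 mice by flow cytometry with α7-integrin and CD34 as the surface markers. They were seeded in growth medium with serum and bFGF and given prostaglandin E2 (PGE2) or its solvent, DMSO at 0.1%, for 2 h. The 10 libraries came from young mice of 8 to 20 weeks (2 with vehicle, 2 with PGE2) and aged mice of 20 to 25 months (3 with vehicle, 3 with PGE2). Only the young PGE2 and the aged PGE2 lists were analysed here, 1 list for each, so every site below is a peak after PGE2 in both ages. Nothing here compares PGE2 with vehicle. Neither list holds a value per library, so no site has a replicate error and no difference was tested. The depth per library is unknown, and the labels do not say whether mice were pooled for a library.

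A gene desert is a long stretch of DNA between protein-coding genes. Many deserts hold enhancers, short stretches of DNA that bind transcription factors and act on a promoter at a distance, often that of a developmental regulator at the desert's edge. Enhancers bound by transcription factors are open to transposase, as are promoters, insulators bound by CTCF and starts of non-coding RNAs. PGE2 acts on cells through receptors such as EP4 (Ptger4), which raises cyclic AMP. In muscle stem cells it is known as an inflammatory signal that promotes their expansion after injury.

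Sequence could be read for the few sites that covered the promoter of a long non-coding RNA (lncRNA), a transcript that codes for no known protein. In RefSeq's promoter windows for GRCm38.p6, each 300 bases from 250 before to 50 after a start, 46 sites covered 52 windows of 47 lncRNA genes in full. For 23 of those genes the young summit lay inside the window, and for 23 the young and the aged summit both did. Windows of 5 starts are shown because they run from the strongest site of this set to a weak one and include Mir100hg, the host of microRNAs described below. They are printed 5′ to 3′ on the RNA's strand in GRCm38.p6, with a motif in capitals where a script found any of the 9 searched.
Gm26901, chr1:7398047-7398346, minus strand: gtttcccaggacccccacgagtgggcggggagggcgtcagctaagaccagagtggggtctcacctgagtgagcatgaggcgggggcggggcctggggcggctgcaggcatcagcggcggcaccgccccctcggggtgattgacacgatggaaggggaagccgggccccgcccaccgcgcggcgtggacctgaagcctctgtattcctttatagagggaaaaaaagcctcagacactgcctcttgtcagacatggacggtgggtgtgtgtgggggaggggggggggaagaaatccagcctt
Morrbid, chr2:128429302-128429601, minus strand: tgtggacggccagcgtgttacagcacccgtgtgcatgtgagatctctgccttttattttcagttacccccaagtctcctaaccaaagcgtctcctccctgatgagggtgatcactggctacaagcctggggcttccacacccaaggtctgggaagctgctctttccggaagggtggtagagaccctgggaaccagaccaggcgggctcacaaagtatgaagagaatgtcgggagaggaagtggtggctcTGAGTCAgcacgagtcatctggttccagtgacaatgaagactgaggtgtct
Firre, chrX:50635272-50635571, minus strand: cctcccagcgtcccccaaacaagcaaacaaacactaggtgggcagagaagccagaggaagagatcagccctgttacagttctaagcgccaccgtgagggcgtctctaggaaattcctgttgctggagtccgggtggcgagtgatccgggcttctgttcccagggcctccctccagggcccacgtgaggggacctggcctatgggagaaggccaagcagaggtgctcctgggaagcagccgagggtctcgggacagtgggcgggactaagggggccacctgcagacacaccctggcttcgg
Mir100hg, chr9:41474643-41474942, plus strand: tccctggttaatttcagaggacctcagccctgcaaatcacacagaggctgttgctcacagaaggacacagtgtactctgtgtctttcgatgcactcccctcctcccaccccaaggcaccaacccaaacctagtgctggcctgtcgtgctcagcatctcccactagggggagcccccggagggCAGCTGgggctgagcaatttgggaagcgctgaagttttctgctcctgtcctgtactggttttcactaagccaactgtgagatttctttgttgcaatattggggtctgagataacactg
Mir99ahg, chr16:77329078-77329377, plus strand: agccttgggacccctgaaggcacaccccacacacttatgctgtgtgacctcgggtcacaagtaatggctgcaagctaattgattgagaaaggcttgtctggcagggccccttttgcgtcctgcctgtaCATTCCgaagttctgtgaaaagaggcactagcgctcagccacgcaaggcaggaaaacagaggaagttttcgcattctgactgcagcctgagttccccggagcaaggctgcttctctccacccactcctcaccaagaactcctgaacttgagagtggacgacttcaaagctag

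The window of Gm26901, a predicted lncRNA between Pcmtd1 and Sntg1, held 18 CpG dinucleotides and none of the 9 motifs, and its site reached 162-fold in the young and 98.6-fold in the aged list. Morrbid, an lncRNA known for acting on the neighbouring cell-death gene Bcl2l11, had 8 CpG and an AP-1 motif (TGANTCA) that starts at base 250 of the window. Its site stood at 67.6-fold in the young and 47.7-fold in the aged list. Firre, an X-linked lncRNA with a part in nuclear organisation, had 12 CpG, none of the motifs, and a site of 48.0-fold (young) and 29.9-fold (aged). Mir100hg, the host of miR-100, let-7a-2 and miR-125b-1, carried an E-box of the letters CAGCTG at base 183 under a site of 37.9-fold (young) and 31.2-fold (aged). Mir99ahg carried the TEAD letters GGAATG on the opposite strand, printed as CATTCC, at base 129, under a site of 14.8-fold (young) and 9.76-fold (aged). The strongest and the weakest of the 5 windows thus differed far more in fold than in CpG content, 18 against 8.

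Across the 52 covered windows, the TEAD letters GGAATG were in 17 windows (32.7%, exact 95% binomial interval 20.3 to 47.1), beside 16.3% of the 1421 other desert promoters and 14.7% of all 32851 promoters of that length. AP-1 letters (TGANTCA) were in 9 (17.3%, 8.23 to 30.3), beside 10.1% and 7.81%. RUNX letters (TGTGGT) were in 14 (26.9%, 15.6 to 41.0), beside 19.8% and 16.8%, and the E-box CAGCTG was in 11 (21.2%, 11.1 to 34.7), beside 15.2% and 16.3%. TEAD factors are the DNA-binding partners of YAP, AP-1 is the Fos and Jun family, and the E-box is the class of site that MyoD and Myf5 bind. Both strands were searched, and windows of starts close together share bases. MEF2 letters were in 1 window (1.92%, 0.0487 to 10.3), beside 5.07% of the other desert promoters and 3.69% of all promoters. The CRE (TGACGTCA), which CREB binds, and the letters used for CTCF, NF1 and ETS (CCGGAAGT) were in 0 of 52. A count of 0 of 52 has an upper limit of 6.85%, and these letters are rare among other desert promoters too, at 0.493%, 0.563%, 0.0704% and 0.774%. Over all promoters their shares were 1.79%, 0.813%, 0.0365% and 3.89% in the same order. Covered windows had a median of 5.5 CpG and 49.0% GC, beside 3 and 44.3% in the other desert promoters and 7 and 52.7% in all promoters. The 52 windows were chosen by the position of strong sites, so these shares describe them and were not tested.

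Strength chose the sites, so their folds are given as a description. In the young list the fold of the 1599 sites ran from 10.04 to 2493 with a median of 19.7 and quartiles of 14.1 and 30.9. The aged partners ran from 7.02 to 4362 with a median of 16.9 and quartiles of 11.3 and 26.8. In the young list 811 sites lay between 10- and 20-fold, 531 between 20- and 40-fold, 226 between 40- and 100-fold, and 31 at 100-fold or more. Most sites were thus near the lower limit of the rule, with a thin tail of very strong ones. Just inside the young limit lay chr1:61387514-61388508, between Icos and Pard3b, at 10.04-fold, and just outside it a region between Mc2r and Tcf4 at 9.992-fold. Just inside the aged limit lay chr2:128312754-128314144, between Bcl2l11 and Spdye4c, at 7.02-fold, and just outside it chr1:183868166-183869947, between Hhipl2 and 1700056E22Rik, at 6.97-fold in the aged list and 22.9-fold in the young. The distance limit was met by a site 150.051 kb from a gene end, between Pabpc4l and Pcdh18. It was missed at 149.866 kb by chr16:29915208-29916157, a region of 65.1-fold (young) and 42.7-fold (aged) between Opa1 and Hes1.

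**Figure D1:**
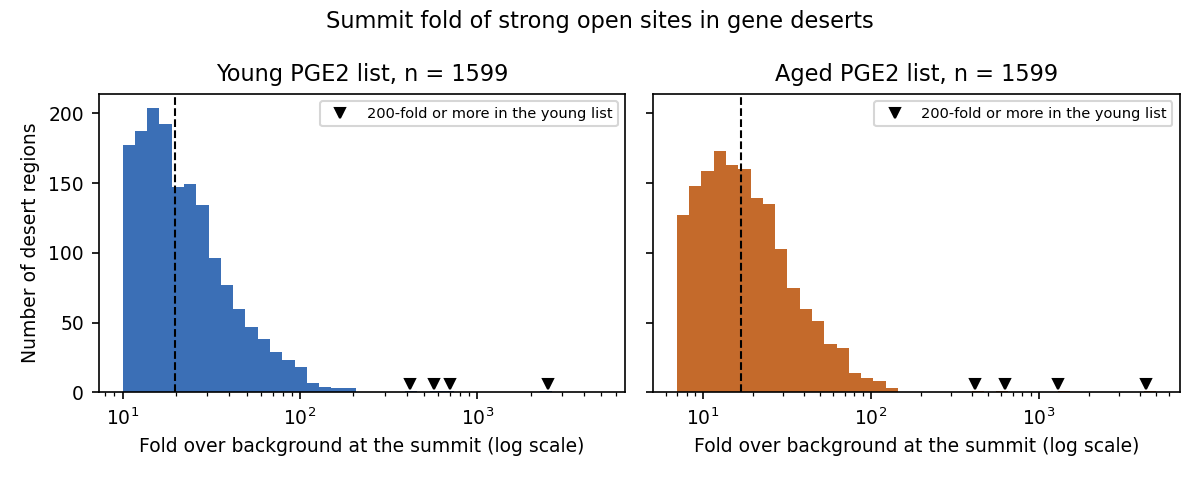
Distribution of the summit fold of the 1599 desert sites in the young PGE2 list (left) and of their aged partners (right), on a log axis, with the number of regions on the y axis and the median as a dashed line. Both distributions crowd towards the limit of the rule, 10 in the young and 7 in the aged list, and triangles mark the 4 sites of 200-fold or more in the young list.

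Only 4 of the sites reached 200-fold in the young list, beside 141 regions of the whole list, and 3 of the 4 lie side by side. In the desert between Lrrc4c, a neuronal adhesion gene, and Iftap, chr2:98666166-98667401 stood at 2493-fold in the young and 4362-fold in the aged list. It ranked 1st of all regions in each list. Its neighbours chr2:98662163-98663051 and chr2:98664888-98665293 stood at 702- and 567-fold in the young list and at 1315- and 632-fold in the aged list. A further site between them, chr2:98663666-98664134, stood at 45.7-fold (young) and 90.7-fold (aged). These 4 sites were the only 4 young regions in a desert of 3.63 Mb. The other site above 200-fold, chr3:5860264-5860896 between Pex2 and 1700008P02Rik, had 418-fold in the young and 417-fold in the aged list. The even steps between folds correspond to a uniform background of 21.7 fragments in the young and 19.8 in the aged list. These values are not stated by the authors and were derived from the lists, taking a small constant as added to fragments and background alike. A uniform background takes no account of how many copies of a sequence the genome holds. Copy number was not measured, and its part in these folds was not tested. No filter for repeated or hard-to-map sequence was applied here. Without the 4 sites the highest folds were 192 (young) and 144 (aged), the medians 19.7 and 16.8, and the median young width 1138 bp.

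A group of narrow sites near a chromosome end also stood apart in width. At the start of chromosome 9, before Alkbh8, 6 sites lay between bases 2999937 and 3032563. Their widths in the young list were 164, 218, 221, 235, 270 and 782 bp, and their young folds were 12.3, 14.0, 13.6, 40.5, 18.0 and 15.6 in that order. Their aged folds were 25.7, 25.6, 25.4, 82.1, 25.6 and 34.4 in the same order. Whether this sequence is repeated in the genome was not tested. The narrowest site of the whole set, chr9:3001327-3001490, is among them. With 2 sites at the start of chromosome 13, before Gdi2, they made up the 8 sites that no protein-coding gene flanks on the left.

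Of the other sites among the 10 strongest in the young list, those beside Klf6 and Zfp521 lay in deserts that end at a transcription factor gene. Over all sites, 16.4% lay in a desert beside a gene from the list of developmental transcription factors described below. Beside Klf6, a zinc-finger transcription factor, chr13:4770350-4773188 stood at 192-fold in the young and 144-fold in the aged list, 162 kb from Akr1e1 and 1090 kb from Klf6. On the other side of Klf6, chr13:6189018-6194885 stood at 159-fold and 137-fold, 322 kb from Klf6. A site in the desert of Zfp521, a zinc-finger gene of progenitor cells, and Ss18 reached 177-fold (young) and 108-fold (aged). It lay 359 kb from Zfp521 and 294 kb from Ss18, with its summit inside the predicted lncRNA Gm29992. Between Tet2 and Cxxc4, both linked to DNA demethylation, chr3:133757150-133759857 reached 172-fold (young) and 118-fold (aged). Between 9530057J20Rik and Gm15319, chr8:20121638-20123028 reached 188-fold (young) and 114-fold (aged).

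The young and aged summits of a site fell almost on the same base. Their median distance was 10 bp with quartiles of 4 and 19, a measure that the rule did not use beyond the overlap itself. They lay within 10 bp of each other in 846 sites (52.9%), within 50 bp in 1441 (90.1%) and over 1000 bp apart in 7 (0.438%). Strong shared regions elsewhere had nearly the same shares within 50 bp: 91.4% of those near genes, 91.1% of those inside genes and 90.2% of those at gene ends. The largest distance was 2556 bp, at chr16:76813616-76815092 between Nrip1 and Usp25. There a single aged region covered this site and its neighbour chr16:76815434-76817832, which had 115-fold in the young list and a summit 24 bp from the aged one.

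Most sites were about a kilobase wide and made of several summits. The median width was 1136 bp in the young list (quartiles 855.5 and 1537.5) and 1001 bp in the aged list (698 and 1370.5). A site joined a median of 3 deposited rows in the young and 2 in the aged list, and 280 sites (17.5%) were a single row in the young list. Those 280 had a median young fold of 15.5, the 1072 sites of 2 to 4 rows 19.6, and the 247 sites of 5 or more rows 27.8. Width went with them, from 708.5 bp to 1139 bp and 2004 bp. Only 23 sites (1.44%) were wider than 3 kb. The widest was the site beside Klf6 on chromosome 13 just described, at 5868 bp and 12 rows. The next, chr1:7394077-7399525 between Pcmtd1 and Sntg1, spans 5449 bp with 17 rows at 162-fold (young) and 98.6-fold (aged), and it covers the Gm26901 window printed above. Others among the 5 widest were chr1:81736930-81740939 (4010 bp, 64.0-fold young and 58.9-fold aged), 373 kb from Nyap2 and 493 kb from Irs1, and chr7:136057245-136061209 between Mki67 and Mgmt (3965 bp, 25.9 and 12.3). The last was chr14:45990735-45994588 (3854 bp, 62.2 and 45.4), 334 kb from Ddhd1 and 391 kb from Bmp4.

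Distance from genes went with little change in strength. The median site lay 250.5 kb from the nearest protein-coding gene end. The 796 sites between 150 and 250 kb had a median young fold of 19.9, the 628 between 250 and 500 kb 19.3, and the 175 beyond 500 kb 21.0, with median aged folds of 16.2, 17.1 and 18.6. The 24 sites over 1 Mb away had a young median of 23.2 and an aged median of 17.8. The farthest, chr1:102628137-102628361 between Cntnap5b and Cdh20, was 2138 kb from the nearer gene, 225 bp wide, and of 13.1-fold (young) and 12.1-fold (aged). Next came chr14:91630704-91631978, 1383 kb from the protocadherin gene Pcdh9 at 17.3-fold (young) and 7.06-fold (aged), and chr2:46442489-46444777, 1327 kb from the transcription factor gene Zeb2 at 20.3-fold (young) and 16.6-fold (aged). On chromosome X the 42 sites had a median young fold of 16.8, and the 1557 autosomal sites 19.9.

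Other strong shared regions met the same 2 fold limits. In median fold and width the desert sites were closer to those near or inside genes than to those at gene ends. Fold chose all of these regions, so their folds are given as a description. Regions were classed by their summit as at a protein-coding gene end (within 1 kb, 9877 regions), inside a gene (12769) or near a gene (outside genes and nearer than 150 kb, 9212). The median young fold was 19.7 in deserts, 21.1 near genes, 21.1 inside genes and 51.6 at gene ends. In the aged list it was 16.9, 15.7, 16.1 and 32.7. Gene ends were also wider, with a median young width of 1774 bp beside 1136 bp in deserts, 1094 bp near genes and 1187 bp inside genes.

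Because width goes with strength, widths were set side by side within classes of young fold. Between 10- and 20-fold the median young width was 932 bp in deserts, 862 bp near genes, 916 bp inside genes and 1144.5 bp at gene ends. Between 20- and 40-fold it was 1227, 1175, 1278 and 1513 bp, and from 40-fold on 1695, 1701, 1869 and 1966 bp in the same order. Aged widths in deserts were 809, 1079 and 1525 bp over the 3 classes, beside 697, 970 and 1456 bp near genes. The aged widths of desert sites were above those near genes in each class, by less than the distance between their quartiles. Very wide regions were less frequent in deserts, since 1.44% of desert sites exceeded 3 kb in the young list, beside 2.88% near genes, 4.60% inside genes and 9.95% at gene ends.

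**Figure D2:**
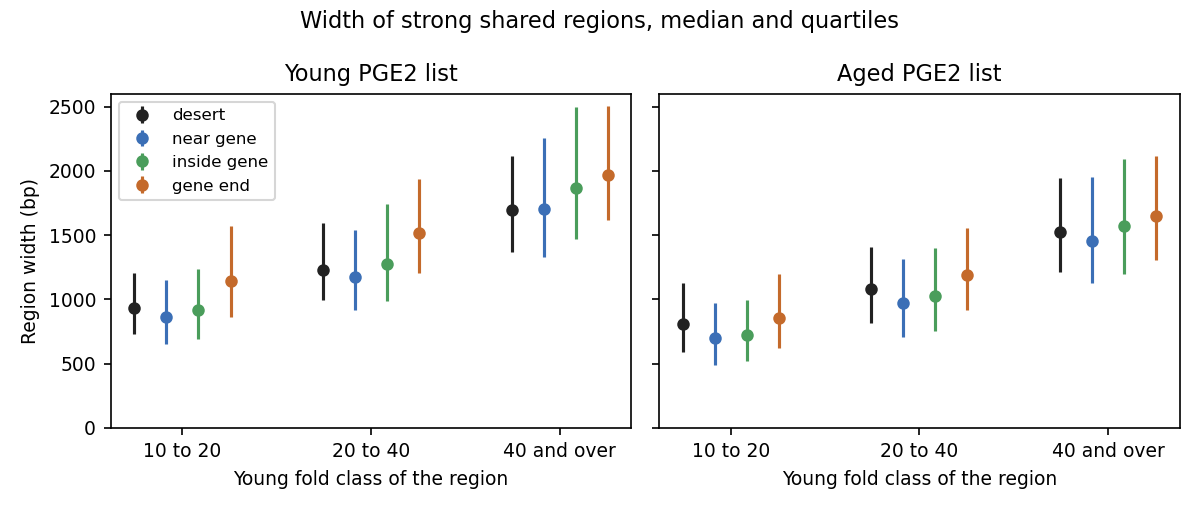
Region width in bp (y axis) by class of young fold (x axis) in the young list (left) and the aged list (right), with points for the median and bars for the quartiles over regions, coloured by position. Width rises with fold in every position, and desert sites (black) lie close to regions near genes in the young list, 932 against 862 bp in the lowest class.

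Desert sites stood higher in the aged order than in the young order of strong shared regions. Ranked among these regions by fold within each list, the median desert site was at percentile 35.7 in the young and 43.6 in the aged list. For regions near genes the medians were 39.3 and 40.04, for those inside genes 39.4 and 41.3, and for gene ends 77.1 and 72.9. The percentile was the higher in the aged list for 1042 desert sites (65.2%, exact 95% interval 62.8 to 67.5 for counting error only), 52.6% of regions near genes, 54.3% inside genes and 30.1% at gene ends. Within each class of young fold, the median aged percentile alone was also highest in deserts. Between 10- and 20-fold the median aged percentile was 25.9 in deserts and 19.1 near genes, between 20- and 40-fold 55.7 and 50.5, and from 40-fold on 85.8 and 81.8. At gene ends it was 16.9, 48.4 and 84.8 over these classes, so gene ends came last only below 40-fold. Both lists enter the rule that chose these regions, each age has 1 list, and a place in an order is relative to other regions, so these values are no test of a change with age.

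Strong sites were a smaller part of what was open in deserts than elsewhere. Deserts held 8528 young regions (6.48% of the list) and 8127 aged regions (6.93%). Of the young desert regions 18.8% were strong and shared, beside 25.9% of the 123051 young regions elsewhere on the placed chromosomes. Once a young region had reached 10-fold, however, the share with a strong aged partner was close to that elsewhere, 1599 of 1815 in deserts (88.1%) and 31858 of 36352 elsewhere (87.6%), with 87.7% over the whole list. Of the 216 desert regions at 10-fold or more that were not members, 212 overlapped a weaker aged region and 4 overlapped none, the strongest of those 4 at 14.0-fold.

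Weak desert regions, which the rule did not select, were found in both lists less often than those of 10-fold or more. Of the 1815 young desert regions at 10-fold or more, 1811 (99.8%) overlapped any aged region, with no limit on the aged fold. Of the 2629 young desert regions under 3-fold, 43.3% (41.4 to 45.2) overlapped any aged region, beside 33.2% elsewhere. Of the 2920 aged desert regions under 3-fold, 58.4% (56.6 to 60.2) overlapped a young region, beside 71.3% elsewhere. Between 3- and 10-fold the shares in deserts were 81.9% of young and 92.8% of aged regions, beside 76.4% and 96.5% elsewhere. Desert and other regions thus differed in opposite directions in the 2 lists, and the young list is the longer. These shares depend on how many regions each list holds, and how many fragments stand behind each list is unknown.

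Most sites shared a desert with others. The genome had 1164 gaps of over 300 kb between neighbouring protein-coding genes, the shortest gap that can hold a site, and 362 of them (31.1%) held at least 1. No young region of any strength lay in the desert part of 491 gaps, so 362 of 673 gaps with any (53.8%) held a site. A single site was found in 119 gaps, 5 or more in 117 and 10 or more in 45. Those 45 held 666 sites (41.7%), beside 28.5% of the other young desert regions. The 45 were picked by their number of sites, so a high share of sites in them was fixed in advance. In all, 1480 sites (92.6%) shared their desert with another. That share is not given for the other young desert regions, so it does not set the sites apart from them. The nearest other site was at a median of 13.45 kb, with quartiles of 4.28 and 45.0 kb. Around a desert site there were fewer other strong shared regions than around those near or inside genes, and about as many as at gene ends. Within 50 kb it had a median of 2 other strong shared regions, beside 3 near genes, 4 inside genes and 2 at gene ends. No other such region lay within 50 kb of 340 desert sites (21.3%), beside 8.73% of regions near genes, 7.41% inside genes and 15.6% at gene ends. Under the rule no gene-end region can lie within 50 kb of a desert site, so these differences are partly fixed in advance.

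Over the 644.8 Mb that lie beyond 150 kb of both flanking genes, there were 2.47 sites per Mb. Among the 194 gaps with over 1 Mb of such sequence 68 held a site (35.1%), beside 31.1% of all gaps. Gaps with a site had a median length of 694.9 kb and those without 546.0 kb. The longest empty desert, between the teneurin gene Tenm3 and Aga, had 3.69 Mb and 6 young regions, none of which met the rule. Others without a site lay between Pcdh7 and G6pd2 (2 young regions), D3Ertd751e and Pcdh10 (1), Cdh6 and Cdh9 (10), and Tenm2 and Mat2b (0). Cadherins, protocadherins and teneurins are cell-adhesion molecules that are mostly known from neurons. Chromosome 13 had the highest density, 6.04 sites per Mb, and chromosomes 5 and X the lowest with any site, 1.16 and 0.910 per Mb. Chromosome Y had 107 gaps and no site.

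**Figure D3:**
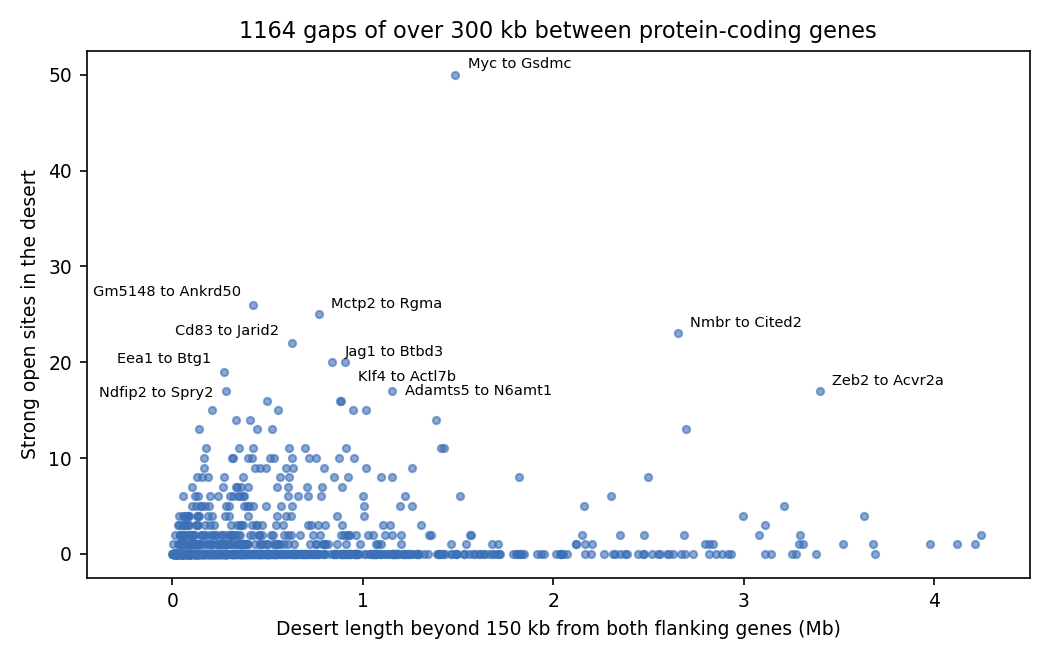
Number of strong open sites (y axis) against the length of desert beyond 150 kb from both flanking genes in Mb (x axis), each point 1 of the 1164 gaps between protein-coding genes. The desert between Myc and Gsdmc holds 50 sites in 1.49 Mb, while many longer deserts lie at 0.

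The richest desert follows Myc, the transcription factor gene that drives growth and proliferation, and ends at Gsdmc, of a family of pore-forming proteins. It held 50 sites on chromosome 15 among 163 young regions, with young folds of 10.9 to 148 (median 20.2) and aged folds of 7.45 to 120 (median 20.9). The sites fell into groups. Within 400 kb of Myc lay 23 of them, and none lay between 579 and 913 kb from it. In the first group the strongest was chr15:62327146-62329821, 338 kb from Myc, at 148-fold in the young and 116-fold in the aged list. Near it lay chr15:62286408-62288281 (108-fold young, 91.0-fold aged) and chr15:62320384-62323043 (107-fold and 59.5-fold). Beyond the empty stretch the strongest was chr15:63035743-63037109, 1046 kb from Myc, at 133-fold (young) and 120-fold (aged), the highest aged fold of this desert. At 50-fold or more there were 13 sites in the young and 6 in the aged list. Inside the span of Pvt1, an lncRNA gene next to Myc, lay 12 of the 50 sites, with young folds of 11.8 to 77.3. In 43 of the 50 the young and aged summits lay within 50 bp of each other.

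The desert between Gm5148 and Ankrd50 on chromosome 3 held 26 sites in 0.425 Mb. Gm5148 is a predicted gene, and the next named gene on that side is Spry1, an inhibitor of growth-factor signalling that keeps muscle stem cells quiescent. Young folds ran from 11.9 to 109 and aged folds from 9.66 to 91.3. The strongest, chr3:37924085-37925908, stood at 109-fold (young) and 91.3-fold (aged) and lay inside the predicted lncRNA Gm20755, which held 12 sites in 93.9 kb. Others were chr3:37916791-37918281 at 72.4-fold and chr3:37881607-37883341 at 70.3-fold in the young list. The sites of this desert were wide, with a median of 1729.5 bp beside 1136 bp over all sites.

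The desert between Mctp2, a calcium-binding membrane protein gene, and Rgma, a BMP co-receptor and guidance molecule, held 25 sites in 0.768 Mb on chromosome 7. They were spread along it rather than gathered at an edge. The strongest, chr7:72834484-72837102, stood near the middle, 529 kb from Mctp2 and 539 kb from Rgma, at 88.4-fold (young) and 81.2-fold (aged). The next were chr7:72541108-72543146 at 82.2-fold and 54.7-fold and chr7:72750513-72752765 at 80.9-fold and 70.9-fold. The last of these was the stronger of the pair in the aged list and the weaker in the young.

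**Figure D4:**
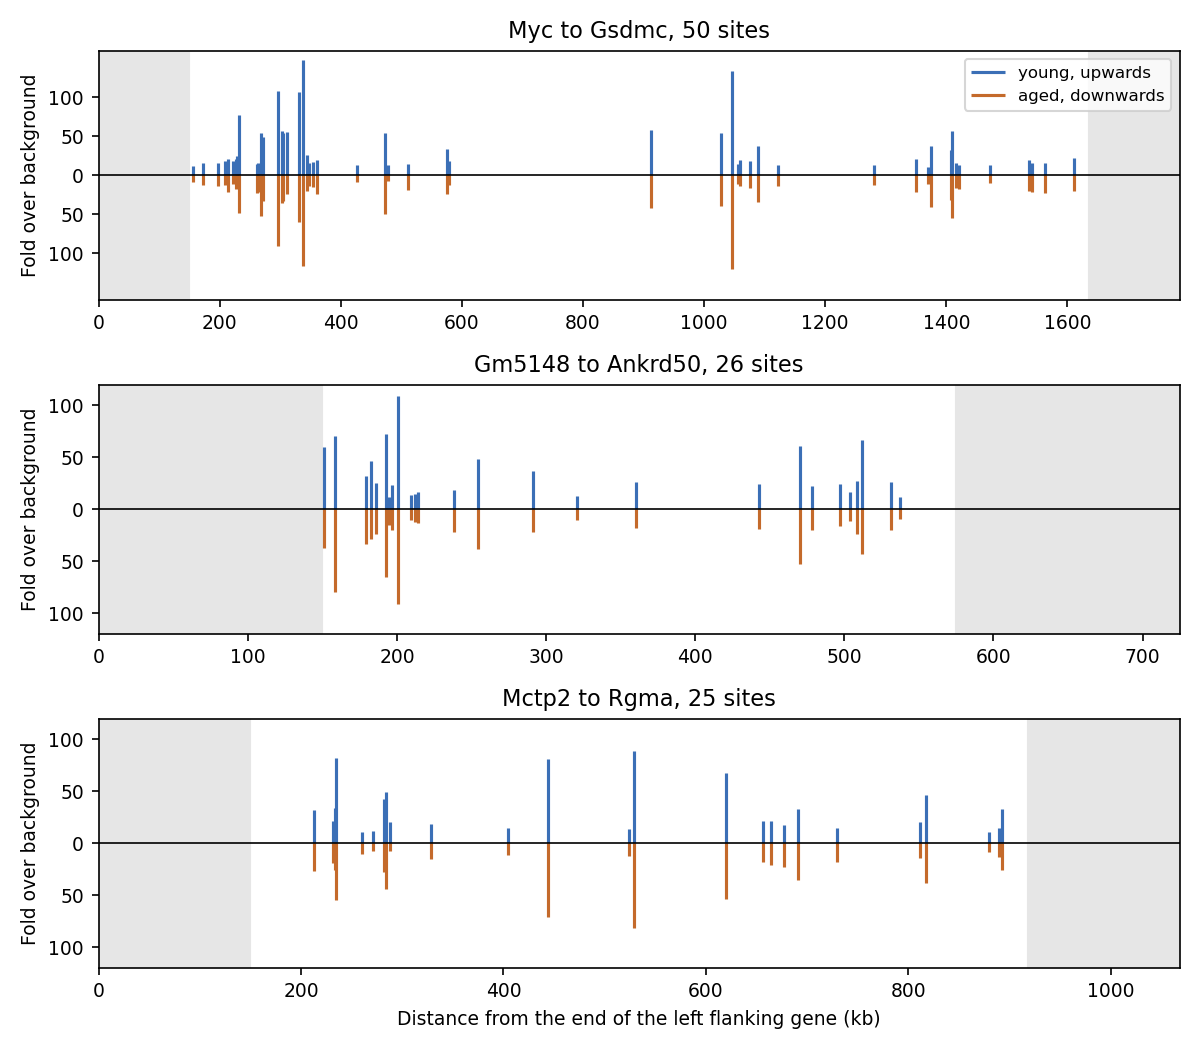
Sites of the 3 deserts with the most sites, placed by the distance of the young summit from the end of the left flanking gene in kb (x axis), with the young fold drawn upwards and the aged fold downwards (y axis, each on its own list's scale). Grey marks the 150 kb beside each flanking gene, where the rule admits no site, and the Myc desert shows its stretch without a site between 579 and 913 kb.

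A few small deserts, picked here for their high density, held many sites in little sequence. The 15 sites between Lyplal1 and Tgfb2, a TGF-β ligand that acts on muscle stem cells, lay in 0.205 Mb (73.0 per Mb). The strongest was chr1:186460314-186461749, 162 kb from Tgfb2, at 79.5-fold (young) and 67.8-fold (aged). Between Klf14 and Mkln1, 13 sites lay in 0.140 Mb (93.0 per Mb), 12 of them inside the lncRNA Lncpint. Between Eea1 and Btg1, an antiproliferative gene, 19 sites lay in 0.271 Mb. There the site nearest to Btg1, chr10:96460476-96461397 at 156 kb from it, was the strongest in both lists, at 67.9-fold (young) and 93.0-fold (aged), although only 922 bp wide. Between Ndfip2 and Spry2, an inhibitor of receptor tyrosine kinase signalling, 17 sites lay in 0.283 Mb. The strongest, chr14:105730772-105734016, reached 93.8-fold (young) and 71.8-fold (aged), 159 kb from Spry2.

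Deserts beside 5 lists of genes were described by how often they held a site. These lists were put together from general knowledge with earlier results of these data known. A gap counted for a list when either flanking protein-coding gene was on it. Of the 116 gaps beside a developmental transcription factor, 59 held a site (50.9%, 41.4 to 60.3), beside 31.1% of all 1164 gaps. The median length of these gaps was 688.9 kb, beside 605.5 kb over all. They held 262 sites, 3.98 per Mb against 2.47 over all gaps. These 262 were 16.4% of all sites, and the share was 9.13% when the nearest protein-coding gene alone was counted. For growth factors, guidance cues and their receptors it was 27 of 70 (38.6%, 27.2 to 51.0) with 110 sites, 2.92 per Mb. For cadherins and neuronal adhesion genes it was 34 of 114 (29.8%, 21.6 to 39.1), but with only 92 sites in gaps of a median of 1353 kb, 0.589 per Mb. Gaps beside none of the listed genes held a site in 235 of 858 cases (27.4%), with 2.81 per Mb. The intervals cover counting error over gaps only.

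**Figure D5:**
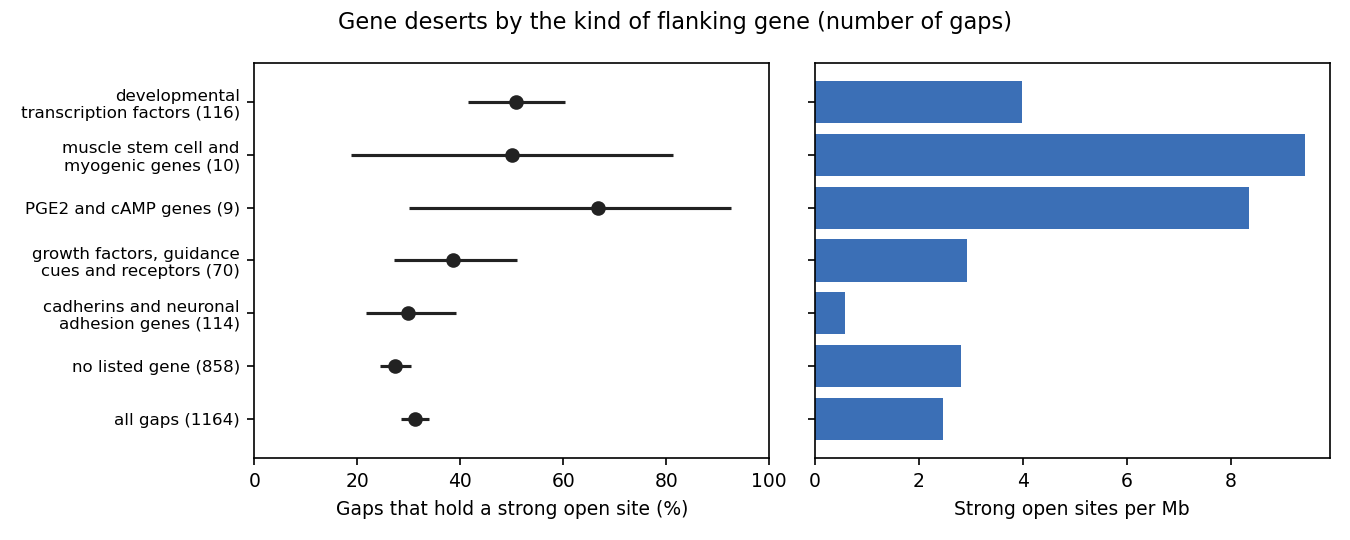
Share of gaps that hold a strong open site, with exact 95% binomial intervals (left), and number of sites per Mb of desert (right), by the kind of gene at either edge, with the number of gaps in brackets. The share is 50.9% beside developmental transcription factors and 31.1% over all gaps, and the density is lowest, 0.589 per Mb, beside adhesion genes.

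The listed transcription factor with the most sites was Klf4, a Krüppel-like factor known from pluripotent cells and epithelia, whose desert held 20. The strongest, chr4:55729505-55731081, stood at 73.4-fold (young) and 68.8-fold (aged), 198 kb from Klf4. Zeb2, a repressor of epithelial genes, had 17 sites over 3.397 Mb. Sox4 had 16 and Klf6 15, in the 2 deserts on either side. Foxo1, which acts in muscle metabolism and stem cell quiescence, had 14, with the strongest at chr3:52676909-52678185 (64.4-fold young, 43.2-fold aged), 327 kb from Foxo1. Id2, an inhibitor of myogenic basic helix-loop-helix factors, Ets1 and Tcf4 had 11 each, Sox6 and Zfp703 10 each, and Runx1 and Sox9 9 each. The highest young fold was 97.2 beside Runx1 and 37.7 beside Id2. The list of growth factors, guidance cues and receptors also held some inhibitors of their signalling, among them Spry2 with 17 sites. Of its ligands and receptors, Tgfb2 had 15, Bmp4 14 and Epha7 13. Epha7, an ephrin receptor, had chr4:31642005-31643986 at 108-fold (young) and 81.3-fold (aged) in its desert. That site lay 2675 kb from Epha7 and 321 kb from Map3k7, the gene at the other edge.

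Genes of the PGE2 and cyclic AMP pathway flank only 9 gaps, of which 6 held a site (66.7%, 29.9 to 92.5, an interval that includes the 31.1% of all gaps). Beside Ptger4, the gene of the EP4 receptor for PGE2, the desert that ends at Dab2, an endocytic adaptor, held 10 sites. The strongest, chr15:6056411-6057866, stood at 105-fold in the young and 107-fold in the aged list, but it lies 813 kb from Ptger4 and 243 kb from Dab2. Its neighbours chr15:6080524-6082084 and chr15:6059474-6060902 stood at 57.8- and 36.0-fold (young) and at 59.0- and 36.1-fold (aged). On the Ptger4 side the nearest sites, chr15:5462478-5463179 and chr15:5464472-5465051, lay 219 and 221 kb from the gene with 10.7- and 12.4-fold in the young list. The strong sites of this desert were thus on the side of Dab2.

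Beside Pde3a, a phosphodiesterase that degrades cyclic AMP, 8 sites lay between Aebp2 and Pde3a. The strongest, chr6:141041233-141043033, stood at 71.1-fold (young) and 63.0-fold (aged), 207 kb from Pde3a. Beside Adcy2, an adenylyl cyclase, 6 sites included chr13:69229614-69232061 at 112-fold (young) and 79.8-fold (aged), 231 kb from Adcy2. The others in that desert ran from 15.8- to 35.0-fold in the young list. Adcy8, another adenylyl cyclase, had 3 sites in 2 deserts, up to 28.8-fold in the young list. Creb1, the transcription factor that cyclic AMP activates, had 2, up to 52.3-fold. The deserts of Adcy1, Nr4a2 and Nr4a3 held none. Vehicle lists were not analysed here, so none of these sites can be called a response to PGE2.

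Genes known from muscle stem cells flank 10 gaps, of which 5 held a site (50%, 18.7 to 81.3, which includes the 31.1% of all gaps), with 36 sites in all. The desert between Jag1, a Notch ligand, and Btbd3 held 20 of them. Without this gap the density beside the list fell from 9.43 to 5.37 sites per Mb. With predicted genes left out the list's gaps held 62 sites, 14.6 per Mb, since the desert next to Spry1 then counts for it. The nearest lay 172 kb and the farthest 826 kb from Jag1. The strongest pair lay side by side 475 and 478 kb from Jag1 and exchanged places between the lists. In the young list chr2:137591162-137592488 stood at 50.6-fold and chr2:137594087-137595244 at 55.2-fold, and in the aged list at 63.4- and 61.9-fold. A site at chr2:137740093-137741123 stood at 23.0-fold (young) and 47.4-fold (aged), which placed it 12th of 20 in the young and 4th in the aged list. Gas1, a membrane co-receptor of Hedgehog signalling, had 8 sites in the deserts on its 2 sides, led by chr13:60415615-60418400 at 59.6-fold (young) and 41.2-fold (aged) and chr13:60427161-60428789 at 51.9-fold and 41.6-fold. These leading sites lay 240 and 250 kb from Gas1 but nearer to Dapk1, at 184 and 174 kb from it. Ncam1, an adhesion molecule of myogenic cells, had 7 sites of 12.2- to 43.6-fold in the young list. Cxcr4, a chemokine receptor, had 1, at 29.0-fold (young) and 13.8-fold (aged). The deserts of Mef2c, Meox2, Sim1 and Chodl held none. Nor did the desert beside Pax3, a gene on the list of developmental transcription factors.

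Non-coding genes lie in the deserts, and 377 sites (23.6%, 21.5 to 25.7) had their summit inside the span of an lncRNA. The share was 21.1% for strong shared regions near genes and 21.2% for the 6929 other young desert regions. Within 1 kb of an lncRNA end lay 76 sites (4.75%), beside 9.65% of strong shared regions near genes and 3.85% of other desert regions. Sites inside lncRNA spans had a median young fold of 18.5 and those outside 20.3. In all, 212 lncRNA genes held a site. Lncpint, an lncRNA known to be induced by p53, and Pvt1 held 12 each, Mir100hg 10, Mir99ahg 8 and Morrbid 6. The highest young fold in these spans was 59.4 in Lncpint, 53.4 in Mir100hg, 50.9 in Mir99ahg and 41.0 in Morrbid.

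MicroRNAs are short RNAs that pair with messenger RNAs through bases 2 to 8, the seed, and reduce their output. Of the 51 microRNA hairpins that lie in deserts, 11 had a site within 20 kb, a limit chosen after the distances were seen. The share of desert sequence within 20 kb of a site is not given, so this count does not set the hairpins apart. Mir99a and Mirlet7c-1 have the same nearest site, as do Mir100 and Mirlet7a-2, and Mir221 and Mir222. Their mature forms are shown because miR-99a and miR-100 share a seed while their hairpins lie in separate deserts. The sequences are RefSeq's for GRCm38.p6, 5′ to 3′, with the seed in capitals.
mmu-miR-99a-5p: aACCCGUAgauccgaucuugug
mmu-miR-100-5p: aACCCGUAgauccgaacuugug
mmu-let-7c-5p: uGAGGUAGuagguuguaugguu
mmu-miR-125b-5p: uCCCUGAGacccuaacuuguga
mmu-miR-221-3p: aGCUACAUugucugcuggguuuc
mmu-miR-222-3p: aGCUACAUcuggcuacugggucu
mmu-miR-6390: gAAUUGAUcaggauguaacca

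The first 2 share their seed and lie in different deserts. Mir99a on chromosome 16, between Usp25 and Cxadr, lay 3.82 kb from the summit of chr16:77602166-77603515, a site of 36.9-fold (young) and 31.6-fold (aged). That site lay 3.07 kb from Mirlet7c-1. Mir100 on chromosome 9, between Ubash3b and Gm40514, lay 14.5 kb from chr9:41545464-41546394, of 21.5-fold (young) and 17.5-fold (aged), which was 9.16 kb from Mirlet7a-2. In the same desert Mir125b-1 lay 2.09 kb from chr9:41579420-41581581, of 22.9-fold (young) and 15.7-fold (aged). Each of these deserts thus held a let-7 hairpin and a hairpin with the miR-99 seed near a strong site. Mir221 and Mir222, which share a seed and are known to act on the cell-cycle inhibitor p27, had a weak site of 10.8-fold (young) and 9.13-fold (aged) 11.2 and 10.6 kb away. The closest pair of all was Mir6390, 0.446 kb from the summit of a site of 59.3-fold (young) and 59.1-fold (aged) between Ndfip2 and Spry2. The lists measure open chromatin, and no expression of these microRNAs was measured.

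The identity of the cells was checked at the ends of marker genes, within 1 kb. All 10 muscle stem cell markers had a region there in both lists, with folds of 26.7 to 111 in the young and 16.6 to 61.7 in the aged list, among them Pax7, Myf5 and Calcr. Of 9 markers of other cells that a sort could hold, 7 had a region in the young and 5 in the aged list, with folds up to 129 (young) and 98.9 (aged) at the fibroblast gene Dpt. Pdgfra, also a fibroblast marker, stood at 6.21-fold (young) and 6.01-fold (aged). Smooth-muscle Acta2 stood at 48.2-fold (young) and 27.4-fold (aged), and Cd68 of macrophages at 39.97- and 31.5-fold. Pecam1 of endothelium and Ptprc of leukocytes had none in either list, and Cdh5 of endothelium and Sox10 of glia only weak ones in the young list, at 1.98- and 2.95-fold. The share of all protein-coding genes with a region at an end is not given, so these counts alone do not tell cell types apart. An open gene end is not expression, and the part of other cells in the desert sites was not tested.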

How the data were processed

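Bowtie2 and the builds mm10 and GRCm38 are named in the submitters' processing notes for the ATAC-seq reads of the 10 libraries. The files used were 2 deposited lists of peaks in MACS narrowPeak format, young PGE2 (265507 rows) and aged PGE2 (215838 rows). Which libraries entered a list, and how reads were filtered and peaks called, is not given in the sources used here. Each summit's fold ratio, −log10 q-value and score are deposited values of the authors. All folds were whole multiples of 1 step within a tolerance of 0.05 steps. A fold was described only within its own list.

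Touching or overlapping rows were merged into regions (131656 young, 117284 aged), each with the summit of highest −log10 q-value. Regions shared when they overlapped by at least 1 bp. Gene positions, promoters and microRNAs came from RefSeq tables of GRCm38.p6, with 21887 protein-coding genes. On sequences with no protein-coding gene, 22 strong shared regions were left out. Shares have exact (Clopper-Pearson) 95% binomial intervals, and PCR copies without molecular identifiers mean that these cover counting error only. The merging and the rule were checked on simulated lists. Python 3.11.15, pandas 2.3.3, SciPy 1.17.1, NumPy 2.4.6 and matplotlib 3.10.9 were used.

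The members and lists were chosen with earlier results of these data known. Regions named were the 10 strongest in the young list, the 5 widest, the 3 farthest from genes, the sites of the 3 deserts with most of them (all in the map, the strongest in words), up to 3 per gene list, and those at the limits of the rule. Other named deserts, lncRNAs, microRNAs and sites were picked after their values were seen. Motifs were planned for windows at summits, but no genome was at hand, and promoter windows were searched in their place. A marker of other cells chosen for the check of cell identity is not reported here.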

Additional observations from a re-analysis of the deposited data

How the results depend on the processing

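The number of sites follows the rule. It was 2366 at over 100 kb from a gene end and 803 at over 250 kb, 1109 at a young fold of at least 15, 1309 at an aged fold of at least 10, and 90 when non-coding genes also bounded the deserts. The median young width, 1136 bp, became 1272 bp at a young fold of at least 15, 1189 bp at an aged fold of at least 10, 1203 bp when rows within 200 bp were merged and 1102 bp with deserts bounded by all genes. The aged width, 1001 bp, became 1111, 1086 and 1094 bp under the first 3 of these. The share of sites with another in their desert, 92.6%, was 88.5% at a young fold of at least 15 and 70.0% with deserts bounded by all genes, where the median distance between summits was 11.5 bp. Near non-coding genes the share rose from 26.4% within 1 kb to 33.2% within 5 kb. Counting the nearest protein-coding gene alone, the share of sites beside developmental transcription factors was 9.13% instead of 16.4%, beside PGE2 and cyclic AMP genes 0.625% instead of 1.81%, beside growth factors and their receptors 3.75% instead of 6.88%, and beside adhesion genes 3.25% instead of 5.75%. Leaving out predicted protein-coding genes, 63 of 124 gaps beside developmental transcription factors held a site. Beside the muscle stem cell list, the sites then numbered 62 instead of 36, since the desert next to Spry1 joined it.

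No paired analysis was possible because the lists hold no value per library, and leaving out a library was not run for the same reason. Motifs in windows of other widths at the summits were not run. With 1 list for each age, the spread between mice is unknown, and the depth behind each fold is unknown.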
